A study of Mus musculus with 16 samples.

Results

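Enzymes that clear odorants and other foreign compounds were examined in sorted fractions of mouse olfactory mucosa. The members were the 154 genes, of 19572 tested features that carry a gene symbol, whose symbols belong to the aldehyde dehydrogenases (Aldh), cytochrome P450 families 1 to 4 (Cyp), flavin monooxygenases (Fmo), glutathione S-transferases (Gst), sulfotransferases (Sult) or UDP-glucuronosyltransferases (Ugt). They comprised 21 Aldh, 2 Cyp1, 46 Cyp2, 9 Cyp3, 21 Cyp4, 6 Fmo, 21 Gst, 20 Sult and 8 Ugt genes, and all 8 Ugt genes belonged to family Ugt2. Genes already used as markers of sustentacular cells (Cyp2g1, Cyp1a2, Cyp2a5, Ugt2a1 and Sult1c1) were not counted as members.

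Odorants are small, mostly oil-soluble molecules that reach the nasal mucosa with every breath, and the mucosa removes them with enzymes like those of the liver. In the first phase, P450 and flavin monooxygenases add oxygen and aldehyde dehydrogenases turn aldehydes into carboxylic acids. In the second, transferases couple glucuronic acid, glutathione or sulfate to the product. In the olfactory epithelium this work is known chiefly from sustentacular cells, the glia-like cells that surround the sensory neurons, and from the mucus-secreting Bowman glands. The odorants given in this study, undecanal and bourgeonal, are both aldehydes, and the Aldh genes are therefore described apart.

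The mice were of strain C57BL/6, of both sexes and 7 to 12 weeks old, and all carried the S100a5-tauGFP reporter, a fluorescent protein driven by an activity-dependent gene of olfactory sensory neurons. They were kept in chambers for 40 h, and from 26 h on 12 of 24 received the odorants for 10 s every 20 min while the others received filtered air, called vehicle here. Pools of 3 mice were sorted by fluorescence into 2 fractions, which gave 4 groups of 4 Clariom S arrays, a titled GFP- and a titled GFP+ group after odor and the same pair after vehicle. The cell type field of all 16 arrays states the GFP sign opposite to the title, so the fractions are named after their titles alone. In 8 of 8 pools S100a5 itself had more signal in titled GFP-, by 1.31 ± 0.20 log2 units in odor pools and by 1.00 ± 0.20 in vehicle pools (SE, adjusted p = 1.6e-04 and 0.0019). The gene of the reporter was thus higher in the fraction that the cell type field calls GFP+. A reader should not take titled GFP- to mean cells without the reporter, since which label holds was not tested.

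Values are log2 array signals, and differences are titled GFP- minus titled GFP+ or odor minus vehicle, so a positive difference means higher in titled GFP- or in odor. A difference was called when the adjusted p of limma's moderated test over all 19572 features was below 0.05. A signal was taken as above background when it exceeded the 95th percentile of the 23 background probe sets of its array, a limit of 6.87 to 7.41. Arrays of a group correlated at 0.9786 to 0.9946. 1 array stood apart in its receptor signals and in those of some other genes. The median olfactory receptor signal was 7.94 on the odor titled GFP+ array of replicate 1, the lowest of all arrays, and counts without that pool are given below. On that array Nqo1 stood at 14.31, against 15.85 to 16.01 on the others of its group, and Akr1a1 at 12.33, against 13.19 to 13.35. The erythroid marker Alas2 was higher there, at 10.24 against 7.91 to 8.44. The cause was not tested. In sorted cells, fewer cells of a type and less RNA per cell cannot be told apart.

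Most of these enzymes gave no signal above background in either fraction. Of the 154 members, 118 were below background on all 16 arrays, 36 were above it on at least 1 array and 20 on all 16. Members above background numbered 24 to 26 on odor titled GFP- arrays and 27 to 29 on odor titled GFP+ arrays. They numbered 24 to 27 on vehicle titled GFP- arrays and 29 to 33 on vehicle titled GFP+ arrays. The median signal of members lay between 4.31 and 4.62 by array, against 6.76 to 7.32 for all features tested. Detected members were 10 of 21 Aldh, 10 of 21 Gst, 8 of 46 Cyp2, 3 of 21 Cyp4, 3 of 20 Sult and 2 of 6 Fmo genes. No Cyp1, Cyp3 or Ugt member was above background on any array, among them Cyp1a1, which classically responds to the aryl hydrocarbon receptor. Features with more than 1 symbol were not tested, and neither Ugt1 genes nor Ugt2a1 were among those tested, so their levels are not known here. The excluded Cyp1a2 gave 8.97, 8.09, 8.08 and 8.85 in odor titled GFP+ arrays and 7.93, 6.14, 6.41 and 7.21 in odor titled GFP- arrays.

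**Figure D1:**
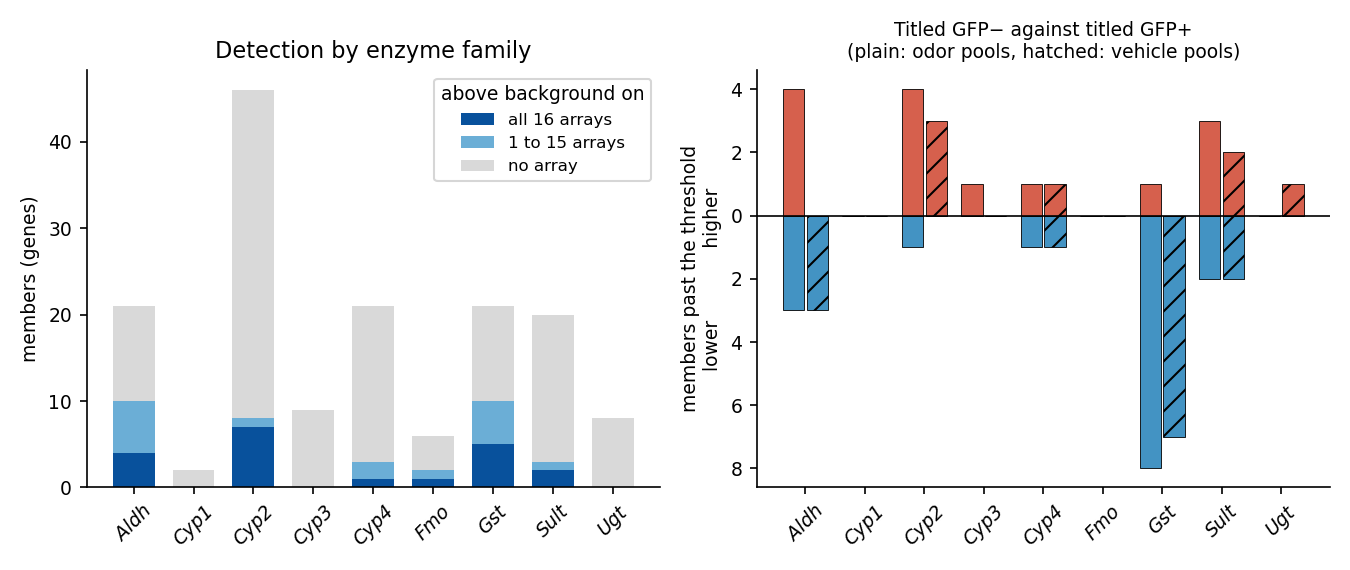
Left, members (genes) of each enzyme family above background on all 16 arrays, on 1 to 15 arrays or on none. Right, members of each family with a called difference, higher (upward) or lower (downward) in the titled GFP- than in the titled GFP+ fraction, for odor pools (plain bars) and vehicle pools (hatched bars). The lower Gst calls, 8 in odor and 7 in vehicle pools, are the tallest bars.

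Between the fractions, 29 members were called in odor pools, 14 higher and 15 lower in titled GFP-. This is 18.8% of the members, against 22.2% of all features (12.2% higher, 9.98% lower). In vehicle pools 20 were called, 7 higher and 13 lower, which is 13.0% of the members against 16.9% of all features (7.05% higher, 9.82% lower). The members' share was slightly below that of all features in both treatments, but 118 of the 154 members were below background on all arrays. Whether the shares differ was not tested. Their median difference was 0.11 in both, against 0.14 over all features in odor pools and 0.13 in vehicle pools. With members below background placed at the limit the background sets, every one of these medians was 0.

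Members called in the same direction in both treatments numbered 11, and 38 were called in at least 1. The matching shares over all features were not computed, so neither count can be read as particular to these enzymes. Of the called members, 15 of 29 in odor pools and 8 of 20 in vehicle pools were below background on every array of both fractions, and no fold is given for them. Without the pool of odor replicate 1 the count in odor pools was 15 (5 higher, 10 lower), and without odor replicate 2 it was 18 (7 higher, 11 lower). The split also depended on scaling. Centring the arrays on the median of tested features, which put the median of all features at 0.44 in odor and 0.54 in vehicle pools, gave 58 higher and 12 lower members in odor pools and 83 higher and 10 lower in vehicle pools. Centring on the olfactory receptor median, which put it at -0.33 and -0.14, gave 0 higher and 19 lower in odor pools and 0 higher and 17 lower in vehicle pools. Of the 15 lower calls in odor pools, 15 were kept under receptor centring and 12 under centring on tested features. Of the 13 in vehicle pools, 13 and 10 were kept. Of the higher calls, 14 of 14 in odor and 7 of 7 in vehicle pools were kept under centring on tested features and 0 under receptor centring.

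**Figure D2:**
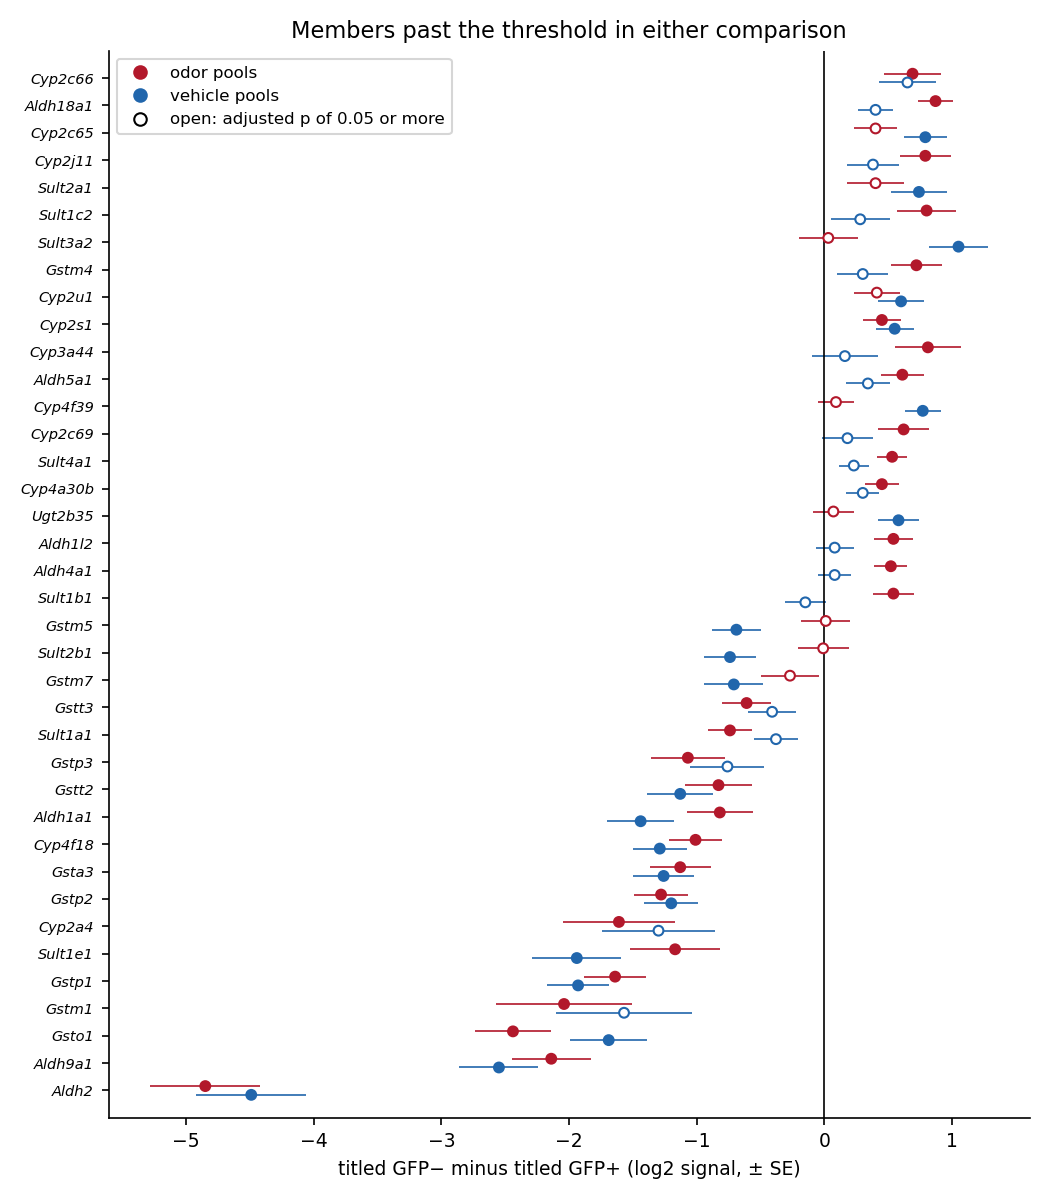
Fitted differences (log2 signal, ± SE) of titled GFP- minus titled GFP+ for the 38 members called in either treatment, odor pools in red and vehicle pools in blue. Filled points were called and open points were not. Aldh2 lies farthest to the left at -4.85 and -4.49, and no member lies above 1.05.

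Among the aldehyde dehydrogenases, 7 of 21 were called in odor pools (4 higher, 3 lower in titled GFP-) and 3 in vehicle pools, all lower. These are 33.3% against 22.2% of all features in odor pools and 14.3% against 16.9% in vehicle pools. Aldh2, Aldh9a1 and Aldh1a1 were lower in both treatments. The medians over the 21 genes were 0.11 in odor and 0.03 in vehicle pools. With the pool as a block the vehicle count became 5 (0 higher, 5 lower), as Aldh1l1 (-0.71, adjusted p = 0.034) and Aldh6a1 (-0.47, adjusted p = 0.037) passed, and the odor count became 8 (5 higher, 3 lower), as Aldh7a1 passed. Without odor replicate 1 the odor count was 3.

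Aldh2, on chromosome 5, encodes the mitochondrial enzyme that oxidizes acetaldehyde and aldehydes from lipid peroxidation. Its signals were 9.16, 8.54, 8.28 and 9.67 in odor titled GFP- arrays, against 14.37, 13.40, 14.07 and 13.21 in odor titled GFP+ arrays. In vehicle pools they were 9.79, 8.18, 9.05 and 10.05 in titled GFP- and 14.85, 13.36, 13.31 and 13.53 in titled GFP+ arrays. The fractions did not overlap, the lowest titled GFP+ array lying above the highest titled GFP- array by more than the range within any of the 4 groups. Aldh2 was 28.9-fold lower in titled GFP- in odor pools (-4.85 ± 0.43, adjusted p = 5.5e-07) and 22.5-fold lower in vehicle pools (-4.49 ± 0.43, adjusted p = 1.2e-06). It had the largest fraction difference of all 154 members in both treatments. It was nevertheless above background on all 16 arrays.

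Aldh9a1, on chromosome 1, oxidizes trimethylaminobutyraldehyde on the way to carnitine. It gave 5.37, 5.45, 5.31 and 4.76 in odor titled GFP- arrays and 8.14, 7.58, 7.10 and 6.60 in odor titled GFP+ arrays. In vehicle pools the signals were 5.30, 5.14, 5.21 and 4.77 in titled GFP- and 8.42, 7.25, 7.88 and 7.07 in titled GFP+ arrays. No titled GFP- array was above background, and 2 odor and 3 vehicle titled GFP+ arrays were. Its difference was -2.14 ± 0.31 in odor pools (adjusted p = 1.1e-04, at least 1.09-fold) and -2.55 ± 0.31 in vehicle pools (adjusted p = 1.7e-05, at least 1.39-fold). The bound sets the brighter group's mean against the background limit of the dimmer one.

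Aldh1a1, on chromosome 19, makes retinoic acid from retinaldehyde and also oxidizes aldehydes in the cytosol. In odor pools its signals were 5.71, 6.32, 5.86 and 6.15 in titled GFP- arrays and 7.26, 6.40, 6.56 and 7.10 in titled GFP+ arrays, none above background (-0.82 ± 0.26, adjusted p = 0.035). That call was lost without odor replicate 1, 3 or 4 or vehicle replicate 3, at -1.07 to -0.58 over all left-out fits (adjusted p up to 0.22). In vehicle pools the signals were 5.73, 5.27, 6.04 and 6.42 in titled GFP- and 7.51, 6.74, 7.27 and 7.71 in titled GFP+ arrays. The difference there was -1.44 ± 0.26 (adjusted p = 8.5e-04, at least 1.09-fold), with 3 of 4 titled GFP+ arrays above background.

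The 4 Aldh genes called higher in titled GFP- were called in odor pools, each by less than 1 log2 unit. Aldh18a1, on chromosome 19, encodes the synthase of the proline precursor pyrroline-5-carboxylate rather than an enzyme that removes aldehydes. It gave 10.54, 10.81, 10.75 and 10.49 in odor titled GFP- arrays against 9.61, 9.89, 9.60 and 10.00 in odor titled GFP+ arrays, 1.83-fold higher in titled GFP- (0.87 ± 0.14, adjusted p = 3.7e-04). In vehicle pools it gave 11.00, 10.54, 10.92 and 10.74 in titled GFP- and 10.56, 10.16, 10.41 and 10.46 in titled GFP+ arrays. The groups overlapped narrowly there and the difference of 0.40 ± 0.14 did not pass (adjusted p = 0.067).

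Aldh5a1, succinic semialdehyde dehydrogenase of GABA breakdown, was higher by 0.61 ± 0.17 (adjusted p = 0.018, 1.53-fold) in odor pools, with 4 of 4 titled GFP- and 3 of 4 titled GFP+ arrays above background. Aldh4a1, which degrades pyrroline-5-carboxylate, was higher by 0.52 ± 0.13 (adjusted p = 0.011), with 1 of 4 odor titled GFP- arrays and no odor titled GFP+ array above background. Aldh1l2, a mitochondrial enzyme of folate metabolism, was higher by 0.54 ± 0.15 (adjusted p = 0.014) with all arrays below background. Each of these 3 calls was lost without odor replicate 1: Aldh5a1 then stood at 0.49 (adjusted p = 0.10), Aldh4a1 at 0.49 (adjusted p = 0.056) and Aldh1l2 at 0.55 (adjusted p = 0.054). Aldh5a1 and Aldh4a1 were also lost without odor replicate 2 (0.51 and 0.44, adjusted p = 0.096 and 0.061), and Aldh1l2 without odor replicate 3 (0.38, adjusted p = 0.11). In vehicle pools the 3 differences were 0.34, 0.08 and 0.08 (adjusted p = 0.20, 0.74 and 0.73).

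Aldh3a2 and Aldh3b1 were bright on all 16 arrays. Aldh3a2, on chromosome 11, is the fatty aldehyde dehydrogenase, which oxidizes aliphatic aldehydes of medium and long chain. It gave 12.79, 12.92, 12.79 and 12.99 in odor titled GFP- arrays and 13.27, 13.25, 13.16 and 13.03 in odor titled GFP+ arrays. In vehicle pools it gave 12.92, 13.05, 12.90 and 12.82 in titled GFP- and 13.20, 13.13, 13.25 and 13.21 in titled GFP+ arrays. The fractions did not overlap in either treatment, though the differences were small at -0.30 ± 0.11 in odor and -0.28 ± 0.11 in vehicle pools and did not pass (adjusted p = 0.051 and 0.090). Aldh3b1, which oxidizes aldehydes from lipid peroxidation, averaged 11.10 ± 0.16 in odor titled GFP- and 11.12 ± 0.36 in odor titled GFP+ arrays, and 11.40 ± 0.29 in vehicle titled GFP- and 11.39 ± 0.51 in vehicle titled GFP+ arrays (SD, n = 4 each). Its differences were -0.03 ± 0.23 and 0.00 ± 0.23 (SE).

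Aldh7a1, of lysine breakdown, was above background on 14 arrays and differed by 0.69 ± 0.31 in odor and 0.34 ± 0.31 in vehicle pools without passing (adjusted p = 0.12 and 0.49). It was higher in titled GFP- within all 4 odor pools and passed there with the pool as a block (adjusted p = 0.016). Aldh6a1, of valine breakdown, was above background on 2 arrays, both of them vehicle titled GFP+. The remaining 11 Aldh genes were below background on all arrays. They were Aldh1l2, Aldh16a1, Aldh1a2, Aldh1a3, Aldh1a7, Aldh1b1, Aldh1l1, Aldh3a1, Aldh3b2, Aldh3b3 and Aldh8a1. Of these, Aldh3a1 is the major aldehyde dehydrogenase of the cornea, and Aldh1a2 and Aldh1a3 make retinoic acid.

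**Figure D3:**
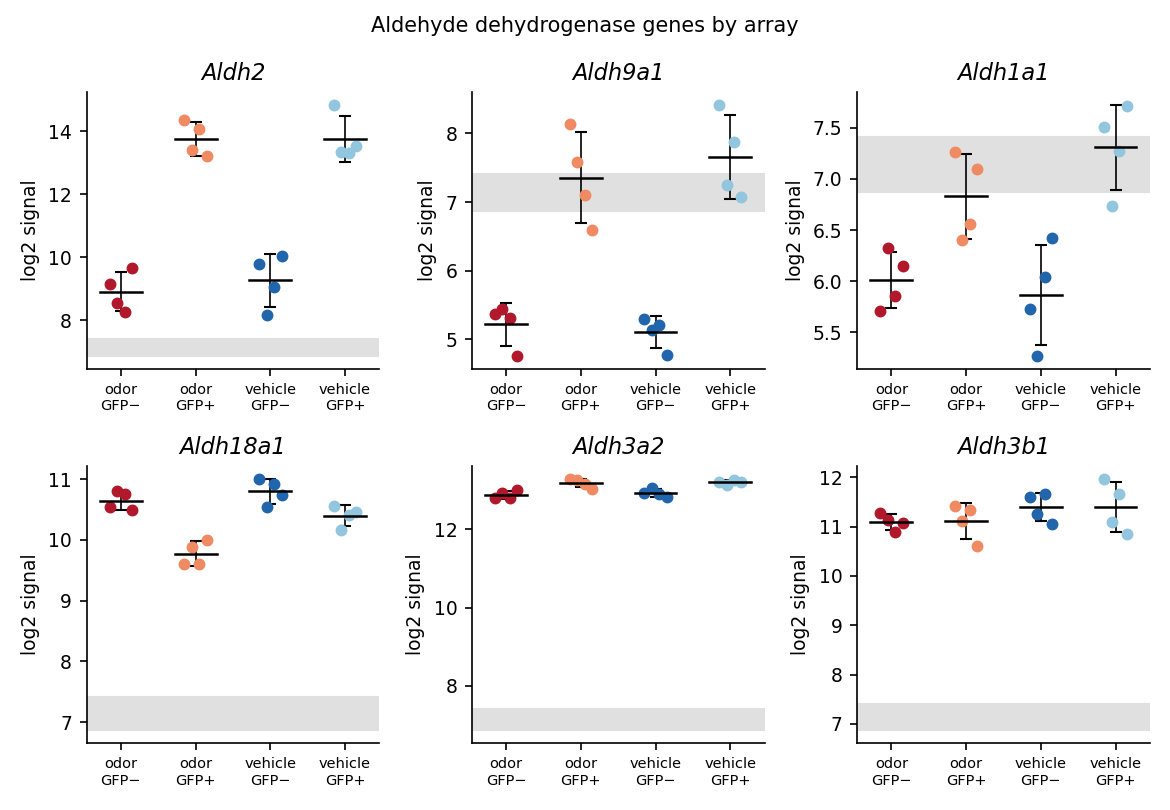
Log2 signals of 6 Aldh genes on each array (points) with the mean (bar) and SD of the 4 arrays of a group, the groups being named by title. The grey band spans the background limits of the 16 arrays, 6.87 to 7.41. Aldh2 separates the fractions by more than 4 log2 units, while the group means of Aldh3a2 and Aldh3b1 lie within 1 log2 unit.

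Other enzymes that act on aldehydes were listed for comparison. Of 22 measured aldehyde reductases, alcohol dehydrogenases and aldehyde oxidases, 4 were higher and 1 lower in titled GFP- in odor pools, and 0 higher and 2 lower in vehicle pools. Their medians were 0.09 and 0.22, and 16 of them were below background on all arrays. Over all features, 22.2% were called in odor and 16.9% in vehicle pools. Akr7a5, an aldehyde reductase, was higher by 1.06 ± 0.20 in odor pools (adjusted p = 0.0011) and stood at 0.40 ± 0.20 in vehicle pools (adjusted p = 0.19). Cbr1, a carbonyl reductase, was higher by 0.64 ± 0.20 (adjusted p = 0.030) and Adh5, the glutathione-dependent formaldehyde dehydrogenase, by 0.50 ± 0.15 (adjusted p = 0.027) in odor pools. On the odor titled GFP+ array of replicate 1, Cbr1 stood at 9.67, against 10.47 to 10.76 on the others of that group. Adh5 stood there at 8.47, against 9.01 to 9.21. Whether calls of listed genes outside the members hold without that pool or under other scalings was not examined. Akr1a1, the general aldehyde reductase, averaged 13.11 in titled GFP- and 13.03 in titled GFP+ arrays after odor, and 13.11 in titled GFP- and 13.18 in titled GFP+ arrays after vehicle, and differed by 0.08 and -0.07 (adjusted p = 0.79 and 0.82).

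Of the called glutathione S-transferases, all but Gstm4 were lower in titled GFP-. In odor pools 8 of 21 were lower and 1 higher, together 42.9% against 22.2% of all features. In vehicle pools 7 were lower and none higher, 33.3% against 16.9%. Medians were -0.17 in odor and -0.43 in vehicle pools, against 0.14 and 0.13 over all features. With genes below background placed at the limit, both Gst medians were 0, and 11 of the 21 were below background on all arrays. Of the lower calls, 4 of 8 in odor and 2 of 7 in vehicle pools were below background in both fractions. Those called lower in both treatments were Gstp1, Gstp2, Gsto1, Gsta3 and Gstt2.

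The pi class is represented by Gstp1, Gstp2 and Gstp3, neighbours on chromosome 19. Gstp1, the abundant pi enzyme of many tissues, gave 6.42, 6.06, 6.61 and 6.57 in odor titled GFP- arrays and 7.73, 8.33, 8.28 and 7.87 in odor titled GFP+ arrays. After vehicle it gave 6.13, 6.41, 6.10 and 7.26 in titled GFP- and 8.75, 8.05, 8.56 and 8.26 in titled GFP+ arrays. All 8 titled GFP+ arrays were above background and no titled GFP- array was. The differences were -1.64 ± 0.24 (adjusted p = 1.2e-04, at least 1.76-fold) in odor and -1.93 ± 0.24 (adjusted p = 2.1e-05, at least 2.34-fold) in vehicle pools. Gstp2 differed by -1.28 ± 0.21 and -1.20 ± 0.21 (adjusted p = 3.5e-04 and 6.3e-04) but was above background on 1 array only, the vehicle titled GFP+ array of replicate 1. Gstp3, below background throughout, differed by -1.07 ± 0.29 in odor pools (adjusted p = 0.016, lost without odor replicate 1, 2 or 3 at -1.43 to -0.82, adjusted p up to 0.11) and by -0.76 ± 0.29 in vehicle pools (adjusted p = 0.093). Whether the probes of these near copies share signal was not tested.

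The start regions of Gstp1 and Gstp2 are shown because both genes were called lower in both treatments and their sequences are alike. The 300 bases run from 250 before to 50 after the gene start in RefSeq (GRCm38.p6), both on the minus strand. Capitals mark GCGTG, the core of the dioxin response element, and TGAGTCA, the AP-1 element, on either strand.
Gstp1 (chr19:4037863-4038162): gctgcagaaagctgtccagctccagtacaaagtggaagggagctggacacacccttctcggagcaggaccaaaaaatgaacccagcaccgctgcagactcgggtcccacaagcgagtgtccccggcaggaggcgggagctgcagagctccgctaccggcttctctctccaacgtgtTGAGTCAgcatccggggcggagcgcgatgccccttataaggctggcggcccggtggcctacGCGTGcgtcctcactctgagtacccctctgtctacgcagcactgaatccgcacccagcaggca
Gstp2 (chr19:4042172-4042471): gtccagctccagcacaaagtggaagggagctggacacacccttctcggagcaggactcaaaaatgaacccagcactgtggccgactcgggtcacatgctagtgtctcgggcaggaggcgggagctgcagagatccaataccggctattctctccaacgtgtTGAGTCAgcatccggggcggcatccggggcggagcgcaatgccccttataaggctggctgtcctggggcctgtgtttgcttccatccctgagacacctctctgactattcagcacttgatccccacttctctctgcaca
The windows match at 246 of 300 aligned bases (82.0%), while the Gstp3 window matches them at 60.7% and 60.0%. TGAGTCA stands in both, and GCGTG in Gstp1. TGACNNNGC, of the antioxidant response element, is in neither window, and a match to it can overlap TGAGTCA read on the other strand. GCGTG was in 32.4% of all 32851 RefSeq start windows of this length, in 21.4% of the 145 windows of members (124 genes), in 41.2% of 17 Aldh windows and in 22.2% of 27 Gst windows. TGACNNNGC was in 12.4%, 7.59%, 11.8% and 11.1% of the same sets, and TGAGTCA in 5.2%, 8.28%, 5.88% and 11.1%.

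Gsto1, the omega class enzyme that reduces dehydroascorbate, gave 4.93, 4.55, 4.95 and 5.12 in odor titled GFP- arrays and 7.18, 7.61, 7.40 and 7.10 in odor titled GFP+ arrays. After vehicle it gave 5.08, 5.57, 5.69 and 5.75 in titled GFP- and 8.33, 6.36, 7.26 and 6.89 in titled GFP+ arrays. The fractions did not overlap, but no titled GFP- array was above background and only 3 odor and 2 vehicle titled GFP+ arrays were. The differences were -2.44 ± 0.30 (adjusted p = 2.0e-05, at least 1.06-fold) and -1.69 ± 0.30 (adjusted p = 7.2e-04, at least 1.02-fold). Gsta3, an alpha class enzyme known in mouse for detoxifying aflatoxin, differed by -1.13 ± 0.24 and -1.26 ± 0.24 (adjusted p = 0.0034 and 0.0014), with 1 titled GFP+ array of each treatment above background. Gstt2, of the theta class, was below background throughout and differed by -0.83 ± 0.26 and -1.13 ± 0.26 (adjusted p = 0.029 and 0.0051), the odor call being lost without odor replicate 1, 3 or 4 (-1.02 to -0.72, adjusted p up to 0.11). Gstt3, also below background, differed by -0.61 ± 0.19 in odor pools (adjusted p = 0.030) and was lost without odor replicate 1, 2 or 4 (-0.68 to -0.55, adjusted p up to 0.12).

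The mu class, a cluster on chromosome 3, moved in both directions. Gstm1, a major mu enzyme of liver, gave 11.26, 9.41, 8.93 and 11.55 in odor titled GFP- arrays and 12.60, 11.93, 11.92 and 12.87 in odor titled GFP+ arrays. It was 4.12-fold lower in titled GFP- in odor pools (-2.04 ± 0.53, adjusted p = 0.012) and lost the call without odor replicate 2 (-1.88, adjusted p = 0.051). In vehicle pools it gave 11.33, 9.87, 11.66 and 11.67 in titled GFP- and 13.03, 11.99, 12.64 and 13.16 in titled GFP+ arrays, and the difference of -1.57 ± 0.53 passed with the pool as a block (adjusted p = 0.0034, or 0.054 without it). Within each pool the titled GFP- array was the lower. Gstm4 went the other way in odor pools, higher by 0.72 ± 0.20 (adjusted p = 0.018, 1.65-fold), and the call was lost without odor replicate 1 or 3 (0.57 and 0.74, adjusted p = 0.056 and 0.063). Its odor titled GFP- signals were 9.02, 9.25, 9.17 and 9.31, against 7.83, 8.66, 8.48 and 8.89 in odor titled GFP+ arrays.

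Gstm5 was called in vehicle pools alone, lower by 0.69 ± 0.19 in titled GFP- (-0.69, adjusted p = 0.019), and differed by 0.01 ± 0.19 in odor pools. The difference between these differences, 0.70, did not pass (adjusted p = 1.0). The vehicle call was lost without vehicle replicate 1, 3 or 4 (-0.82 to -0.64, adjusted p up to 0.11). Gstm7, below background, differed by -0.71 ± 0.23 in vehicle pools (adjusted p = 0.042), a call lost without any odor pool or without vehicle replicate 1 or 4 (-0.87 to -0.54, adjusted p up to 0.19). Gstm2, of the same class, and Gstz1, an isomerase of tyrosine breakdown, were above background on all 16 arrays and were not called, at -0.17 and 0.19 in odor and -0.43 and 0.29 in vehicle pools.

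Genes that supply or follow conjugation were listed beside the transferases. Of 18 measured, 2 were higher and 5 lower in odor pools and 0 higher and 5 lower in vehicle pools, with medians of 0.12 and 0.04. Over all features, 22.2% were called in odor and 16.9% in vehicle pools. Mgst1, a microsomal glutathione transferase outside the naming rule, averaged 6.77 in odor titled GFP- and 11.12 in odor titled GFP+ arrays, and 6.71 in vehicle titled GFP- and 11.41 in vehicle titled GFP+ arrays (-4.36 ± 0.49 and -4.70 ± 0.49, adjusted p = 6.5e-06 and 2.7e-06). It was above background on 1 of 4 titled GFP- arrays of each treatment, against all titled GFP+ arrays, so the differences rest partly on signals below background. Gsr, glutathione reductase, differed by -1.64 ± 0.20 and -1.57 ± 0.20 (adjusted p = 1.5e-05 and 2.2e-05). Gclm, Ugdh and Papss1, which make glutathione, glucuronic acid donor and sulfate donor, differed by -0.09, 0.09 and 0.24 in odor and by -0.06, -0.04 and 0.09 in vehicle pools, none called.

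**Figure D4:**
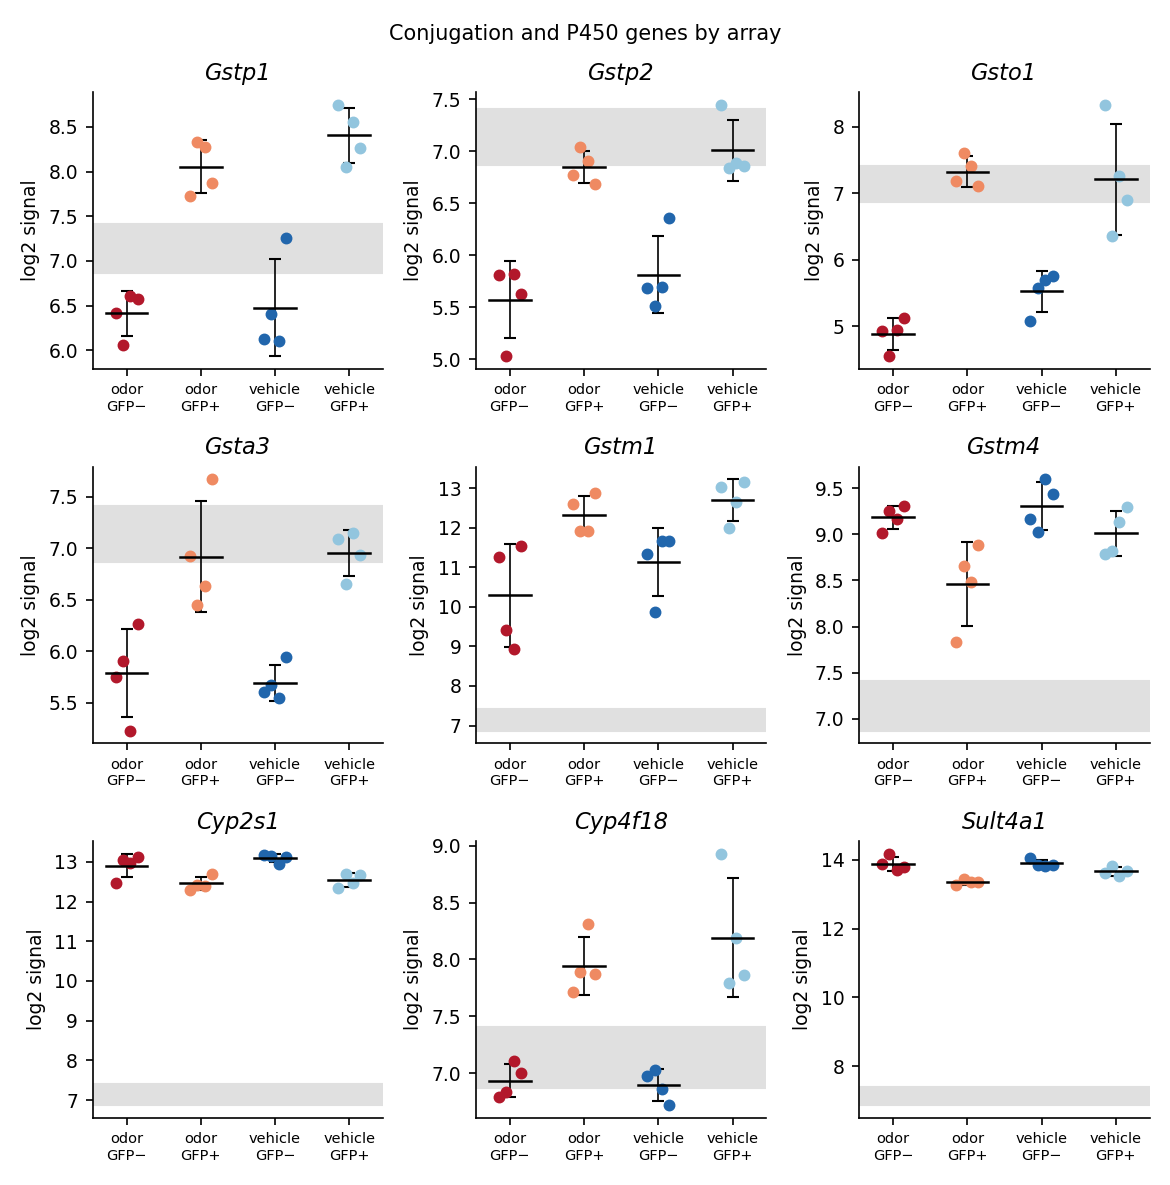
Log2 signals of 9 conjugation and P450 genes on each array (points) with the mean (bar) and SD of the 4 arrays of a group, groups named by title. The grey band spans the background limits, 6.87 to 7.41. Gstp1 lies above the band on titled GFP+ arrays, Gstp2 and Gsta3 mostly in or below it, and Gstm4, Cyp2s1 and Sult4a1 are higher in titled GFP- in odor pools.

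Few P450 members were called above background. In Cyp2, 4 of 46 were higher and 1 lower in odor pools and 3 were higher and 0 lower in vehicle pools. These are 10.9% against 22.2% of all features in odor pools and 6.52% against 16.9% in vehicle pools. Medians were 0.15 and 0.21. Cyp2a4, a mouse steroid hydroxylase nearly identical to Cyp2a5, gave 8.49, 7.84, 7.18 and 8.99 in odor titled GFP- arrays and 9.51, 9.82, 9.29 and 10.30 in odor titled GFP+ arrays. It was 3.05-fold lower in titled GFP-, where 3 of 4 arrays were above background (-1.61 ± 0.44, adjusted p = 0.016) but lost the call without odor replicate 2 or 3 (-1.48 and -1.44, adjusted p = 0.078 and 0.058). In vehicle pools the difference was -1.30 ± 0.44 (adjusted p = 0.056, or 6.0e-04 with the pool as a block). Cyp2f2, which in mouse activates naphthalene, stood at -1.56 ± 0.56 and -1.39 ± 0.56 (adjusted p = 0.055 and 0.10) and passed with the block (adjusted p = 0.0014 and 0.0029). Their signals differed between pools by more than 1 log2 unit within the titled GFP- groups, Cyp2f2 giving 10.73, 9.15, 8.21 and 10.72 in odor titled GFP- arrays. The excluded marker Cyp2a5 was brighter than Cyp2a4, at 12.45, 11.22, 10.21 and 12.80 in odor titled GFP- and 13.73, 13.49, 12.82 and 14.39 in odor titled GFP+ arrays. Whether the probes of Cyp2a4 share signal with Cyp2a5 was not tested, so the fold may not belong to Cyp2a4 alone.

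Cyp2s1 and Cyp2u1 had the opposite sign. Cyp2s1, a P450 found in many epithelia, gave 12.48, 13.05, 12.96 and 13.12 in odor titled GFP- arrays and 12.30, 12.42, 12.40 and 12.70 in odor titled GFP+ arrays (0.45 ± 0.15, adjusted p = 0.043, 1.36-fold). In vehicle pools it gave 13.18, 13.15, 12.94 and 13.13 in titled GFP- and 12.35, 12.70, 12.46 and 12.67 in titled GFP+ arrays (0.55 ± 0.15, adjusted p = 0.017, 1.47-fold). The odor call was lost without any 1 pool except odor replicate 1 (0.39 to 0.54, adjusted p up to 0.16) and turned to -0.02 under receptor centring. The vehicle call was lost without vehicle replicate 1 or 3 (0.46 to 0.59, adjusted p up to 0.13). Cyp2u1, a fatty acid hydroxylase, was called in vehicle pools (0.60 ± 0.18, adjusted p = 0.031, 1.51-fold), lost without vehicle replicate 1, 3 or 4 (0.43 to 0.66, adjusted p up to 0.11), and stood at 0.41 ± 0.18 in odor pools (adjusted p = 0.12). Cyp2j12, Cyp2j6, Cyp2c23 and Cyp2d13 were also above background on all 16 arrays and differed by -0.30 to 0.08 without being called. Cyp2c66, Cyp2c69 and Cyp2j11 in odor pools and Cyp2c65 in vehicle pools were called higher below background, at 0.62 to 0.79. The odor calls were lost without odor replicate 2 (Cyp2j11, adjusted p = 0.080), without odor replicate 1, 2 or 3 or vehicle replicate 2 (Cyp2c66, up to 0.17), or without odor replicate 2, 3 or 4 or vehicle replicate 1 or 2 (Cyp2c69, up to 0.21). Also below background, Cyp2e1, Cyp2b23 and Cyp2c65 in odor pools (0.50, 0.51 and 0.40) and Cyp2c66 in vehicle pools (0.65) passed with the pool as a block but not without it (adjusted p = 0.042, 0.049, 0.045 and 0.048).

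In Cyp4, 1 of 21 was higher and 1 lower in each treatment. This is 9.52%, against 22.2% of all features in odor and 16.9% in vehicle pools. Cyp4f18, which in mouse inactivates leukotriene B4 in neutrophils, gave 6.79, 6.84, 7.11 and 7.00 in odor titled GFP- arrays and 7.71, 7.89, 8.31 and 7.87 in odor titled GFP+ arrays. After vehicle it gave 6.98, 7.03, 6.86 and 6.72 in titled GFP- and 8.93, 7.79, 8.19 and 7.86 in titled GFP+ arrays. The fractions did not overlap, and the difference was -1.01 ± 0.21 (adjusted p = 0.0024, at least 1.63-fold) in odor and -1.29 ± 0.21 (adjusted p = 2.8e-04) in vehicle pools. All 8 titled GFP+ arrays were above background, against 0 of 4 odor and 2 of 4 vehicle titled GFP- arrays. Cyp4f13 was above background on all arrays and was not called (0.32 and 0.41, adjusted p = 0.37 and 0.28). Cyp4a30b (0.45, odor), Cyp4f39 (0.77, vehicle) and Cyp3a44 (0.81, odor) were called higher below background. Cyp4a30b turned to -0.02 under receptor centring, and Cyp4a30b and Cyp3a44 lost their calls without odor replicate 1 or 2, Cyp3a44 also without 3 or 4 (adjusted p up to 0.096 and 0.12). Cyp4f41-ps in odor pools (0.47) and Cyp4x1 in vehicle pools (0.61), both below background, passed with the pool as a block but not without it (adjusted p = 0.028 and 0.024).

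Among 12 measured P450 partners and hydrolases, 2 were higher and 1 lower in odor pools and 2 were higher and 0 lower in vehicle pools. The share called over all features was 22.2% in odor and 16.9% in vehicle pools. Ephx1, the microsomal epoxide hydrolase that acts on P450 products, was higher in titled GFP- by 0.91 ± 0.19 and 0.83 ± 0.19 (adjusted p = 0.0029 and 0.0058). Of 10 xenobiotic regulators, Nfe2l2, the transcription factor of the antioxidant response, was the gene called, higher by 0.42 ± 0.15 and 0.44 ± 0.15 (adjusted p = 0.049 and 0.046), while Ahr, the dioxin receptor, stood at 0.13 and -0.03.

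Of 20 sulfotransferases, 3 were higher and 2 lower in odor pools and 2 were higher and 2 lower in vehicle pools. Together these are 25.0% against 22.2% of all features in odor pools and 20.0% against 16.9% in vehicle pools. Sult1d1, which sulfates catecholamines, was the brightest member, between 17.44 and 18.18 on all 16 arrays where the highest entry of any kind was 19.3, and did not differ past the threshold (0.16 and 0.14, adjusted p = 0.45 and 0.54). Sult4a1, a sulfotransferase of brain neurons, gave 13.87, 14.18, 13.69 and 13.79 in odor titled GFP- arrays and 13.26, 13.45, 13.34 and 13.35 in odor titled GFP+ arrays, 1.44-fold higher in titled GFP- (0.53 ± 0.12, adjusted p = 0.0058). In vehicle pools the difference was 0.23 ± 0.12 (adjusted p = 0.22). Sult1e1, estrogen sulfotransferase, was lower in both treatments at -1.17 ± 0.35 and -1.94 ± 0.35 (adjusted p = 0.026 and 8.3e-04), with 1 vehicle titled GFP+ array above background. Its odor call was lost without odor replicate 1, 2 or 4 (-1.41 to -0.97, adjusted p up to 0.13).

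Calls among sulfotransferases below background were Sult1a1 (-0.74), Sult1b1 (0.54) and Sult1c2 (0.80) in odor pools and Sult2a1 (0.74), Sult2b1 (-0.74) and Sult3a2 (1.05) in vehicle pools. Sult1b1 and Sult1c2 lost them without odor replicate 1 or 4, Sult2a1 without odor replicate 2 or vehicle replicate 2, 3 or 4, and Sult2b1 without vehicle replicate 1 or 3 (adjusted p up to 0.13, 0.16, 0.16 and 0.15). The sole Ugt call was Ugt2b35, higher by 0.58 ± 0.16 in vehicle pools (adjusted p = 0.018), also below background and lost without vehicle replicate 1 or 2 (adjusted p up to 0.11). No Fmo gene was called in the fit without a block, and Fmo2, a flavin monooxygenase of lung, was above background on all 16 arrays (-0.16 and 0.03, adjusted p = 0.41 and 0.89). Fmo6, below background throughout, was lower in titled GFP- within all 4 vehicle pools and passed there with the pool as a block (-0.51, adjusted p = 0.031, or 0.39 without it).

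Markers of other cells moved with the fractions. For comparison, 12.2% of all features were higher and 9.98% lower in odor pools, and 7.05% were higher and 9.82% lower in vehicle pools. Of 8 measured sustentacular markers, 6 in odor and 5 in vehicle pools were lower in titled GFP- and none was higher. Their mean signal was 7.50 to 9.08 on odor titled GFP- and 9.72 to 10.58 on odor titled GFP+ arrays, and 7.85 to 9.14 on vehicle titled GFP- and 9.86 to 10.85 on vehicle titled GFP+ arrays. Ermn was below background throughout, and Krt8 and Krt18 were so on all titled GFP- arrays. The markers Cyp2g1, Cyp1a2, Cyp2a5 and Sult1c1 are themselves enzymes of the families examined, left out of the members. Cbr2 overlapped between the fractions, with 10.84, 9.10, 8.86 and 11.16 in odor titled GFP- and 10.01, 10.18, 9.29 and 11.38 in odor titled GFP+ arrays. All 11 neutrophil markers were lower in both treatments, with mean signals of 5.13 to 5.94 on odor titled GFP- and 13.01 to 14.80 on odor titled GFP+ arrays, and of 4.91 to 5.37 on vehicle titled GFP- and 13.23 to 15.18 on vehicle titled GFP+ arrays. On titled GFP- arrays 10 of these 11 were never above background. All 13 measured markers of other leukocytes and all 8 of microvillar cells and ionocytes were also lower in both treatments. So were all 3 measured erythroid markers, with mean signals of 6.29 to 6.82 on odor titled GFP- and 8.10 to 10.65 on odor titled GFP+ arrays, and of 5.91 to 6.65 on vehicle titled GFP- and 7.66 to 10.90 on vehicle titled GFP+ arrays. Of 4 ensheathing glia markers 2 in odor and 1 in vehicle pools were lower, with Fabp7, S100b and Sox10 below background throughout, and of 9 endothelial and mesenchymal markers none was called. Of 9 Bowman gland markers, 1 was higher and 1 lower in odor pools and 0 higher and 1 lower in vehicle pools, and Aqp5, Krt19, Lcn11 and Muc5b were below background on all arrays. Sox9 gave 5.99 to 6.63 on odor titled GFP- and 9.70 to 11.15 on odor titled GFP+ arrays. The signals of Bpifb9a, Bpifb9b and Obp2a overlapped between the fractions in both treatments. Of 12 mature neuron markers, 4 in odor and 2 in vehicle pools were higher and none was lower. They were bright in both fractions, with mean signals of 16.12 to 16.25 on odor titled GFP- and 15.79 to 16.10 on odor titled GFP+ arrays. After vehicle these were 16.16 to 16.24 on titled GFP- and 15.92 to 16.04 on titled GFP+ arrays. Of 8 immature neuron markers 6 were lower in titled GFP- in each treatment. The part of any of these cells in the differences of Aldh2, the Gst genes, Cyp2a4, Cyp4f18 and the other members was not tested.

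Odor exposure gave no called member in either fraction. In the titled GFP- fraction 0 of 154 passed (0% of all features), and 6 members had an unadjusted p below 0.05, which is 3.90% against 4.11% of all features. In the titled GFP+ fraction 0 passed (0% of all features), and 18 members, 11.7%, had an unadjusted p below 0.05 against 10.3% of all features. For the interaction, the fraction difference in odor pools minus that in vehicle pools, 0 passed (0% of all features). There 13 members, 8.44%, had an unadjusted p below 0.05, against 3.78% of all features. Of these 13, only Gstm5 and Aldh18a1 (16 arrays each) and Aldh4a1 (4 arrays) were above background on any array. With the replicate number as a block 0 members passed in either odor comparison, and with the pool as a block 0 passed in the interaction. In titled GFP- and titled GFP+ the comparisons use different arrays, whereas the interaction shares its arrays with the fraction comparisons.

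No Aldh gene had an unadjusted p below 0.05 in the titled GFP- fraction, against 4.11% of all features. In the titled GFP+ fraction 5 of 21 did, 4 lower and 1 higher in odor, which is 23.8% against 10.3% of all features. Of all members Aldh18a1 came nearest to the threshold there, lower by 0.62 in odor titled GFP+ (-0.62 ± 0.14, 95% interval -0.93 to -0.31, adjusted p = 0.30). Its odor titled GFP+ signals of 9.61, 9.89, 9.60 and 10.00 all lay below the vehicle titled GFP+ signals of 10.56, 10.16, 10.41 and 10.46. The others were Aldh4a1 (-0.38, adjusted p = 0.38), Aldh6a1 (-0.52, adjusted p = 0.40), Aldh1l2 (-0.33, adjusted p = 0.45) and Aldh3b2 (0.50, adjusted p = 0.43). Aldh1l2 and Aldh3b2 were below background on all arrays. In the interaction Aldh4a1, Aldh18a1 and Aldh1l2 had an unadjusted p below 0.05 (0.45, 0.47 and 0.46, adjusted p = 1.0 each). These are 14.3% of the Aldh genes, against 3.78% of all features. Whether any of these shares differ was not tested.

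For the bright Aldh genes the intervals limit what the odor could have changed at this number of arrays. Aldh2 differed between odor and vehicle by -0.36 in titled GFP- (95% interval -1.28 to 0.56) and by 0.00 in titled GFP+ (-0.92 to 0.92). Aldh3a2 differed by -0.05 (-0.27 to 0.18) and -0.02 (-0.24 to 0.21), the narrowest intervals of the family. Aldh3b1 differed by -0.30 (-0.80 to 0.20) and -0.27 (-0.77 to 0.22). A change of Aldh3a2 beyond 0.27 log2 units thus lies outside both intervals, while for Aldh2 a change of almost 1 unit lies within them.

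**Figure D5:**
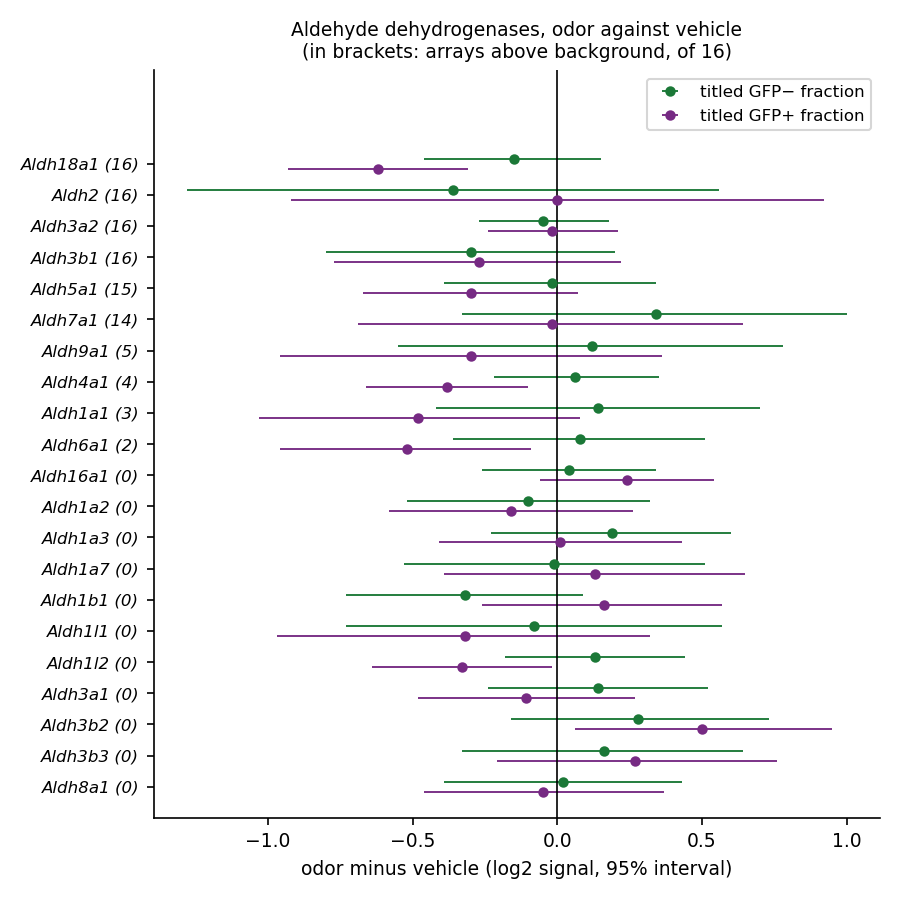
Odor minus vehicle (log2 signal) for the 21 Aldh genes in the titled GFP- fraction (green) and the titled GFP+ fraction (purple), with 95% intervals from the fit, unadjusted for the number of genes. Numbers in brackets count the arrays above background. Aldh18a1 in titled GFP+ lies farthest from 0 at -0.62, and most intervals span 0.

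Outside the Aldh family, those nearest to the threshold in titled GFP+ were Gstm5 (-0.57), Cyp4f39 (0.43), Cyp2t4 (0.53) and Gsta4 (-0.57), with adjusted p of 0.37 or 0.38. Gstm5 alone of these was above background, on all 16 arrays, with 7.47, 8.04, 7.81 and 8.47 in odor titled GFP+ arrays, against 8.57, 8.46, 8.36 and 8.69 in vehicle titled GFP+ arrays. The groups overlapped through the 8.47 of odor replicate 4. In titled GFP- they were Ugt2b35 (-0.50), Cyp2j13 (-0.48), Sult2b1 (0.46), Sult3a2 (-0.54) and Cyp2c65 (-0.37), with adjusted p of 1.0 and all below background. For the interaction they were Cyp4f39 (-0.68), Sult3a2 (-1.02), Sult1b1 (0.69), Gsta4 (0.77) and Sult2b1 (0.74), likewise below background with adjusted p of 1.0.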

How the data were processed

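Gene expression was measured on 16 Clariom S arrays, 1-colour Affymetrix arrays with 1 summarized value per transcript cluster, from 50 to 100 ng of RNA per the labels' protocols. The deposited log2 values were made by the authors with Affymetrix Expression Console (version not given), per the submitters' processing notes. The log2 unit was read from their range of 1.77 to 19.3. Levels between arrays rest on the deposited scale, since background correction, normalization and build are not given in the sources used here.

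Samples were grouped by title into 4 groups of 4 arrays. A limma cell-means model (limma 3.58.1, R 4.3.3) was fitted to the log2 values of 19572 features with 1 gene symbol, with two-sided tests, and p-values were adjusted by Benjamini-Hochberg over all of them at 0.05. Errors written after a difference are SE from that model, and errors after a mean are SD of 4 arrays. The number of arrays limits the precision. All 154 members matched a RefSeq gene table (GRCm38.p6), which gave chromosomes and start regions. Start windows were aligned globally in pairs for their identity.

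The design set the background at the 95th percentile of the 5222 negative control entries, 9.14 to 10.88 by array. These hold bright entries (99th percentile 12.88 to 14.31), so the 95th percentile of the 23 background probe sets graded by GC content was used for statements on background and for fold bounds, a choice made after seeing the data. By the stricter limit 16 members were above background on some array and 6 on all 16. For a fold bound, the brighter group's mean is set against the higher of the limit and the signal on each array of the dimmer group.

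Named were all Aldh genes, members of other families called between fractions, members above background on all 16 arrays, and the 5 members with the smallest p in each comparison without calls. Some further members and listed genes were named after their values were seen, and the AP-1 motif was added then. The members and lists were chosen with earlier results of these data known.

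Both fractions of a pool come from the same mice, since 24 mice made 16 samples of 3. Deviations from the group means correlated at 0.0957 to 0.337 between the fractions of a pool, and at 0.1465 to 0.5471 between odor and vehicle arrays of 1 replicate number. As an alternative, a block was therefore fitted, the pool in the fraction comparisons and the interaction and the replicate number in the odor comparisons. Other alternatives were renewed quantile normalization, centring on the median of tested features or of olfactory receptors, filters on dim features, a variance trend and leaving out each pool. The fit was tested on simulated data.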

Additional observations from a re-analysis of the deposited data

Results flagged for a closer look

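Of 180 groups of 4 arrays tested, over the 45 members named by rule, 8 held an array whose gap to its neighbour exceeded Dixon's 95% critical value, and chance alone flags about 1 group in 20. The vehicle titled GFP+ array of replicate 1 held 3 of them. There Aldh2 stood at 14.85 where the other arrays of the group lay between 13.31 and 13.53. Gstp2 stood at 7.45 against 6.84 to 6.89, and Gstt2 at 5.59 against 4.42 to 4.56. Without that pool the Aldh2, Gstp2 and Gstt2 calls in vehicle pools were all kept.

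On the vehicle titled GFP- array of replicate 2, Aldh1l2 stood at 3.94 against 4.23 to 4.28 and Gstt2 at 3.82 against 3.56 to 3.58. On the odor titled GFP- array of replicate 2, Cyp2c65 stood at 4.04 against 4.53 to 4.61 and Ugt2b35 at 4.25 against 3.65 to 3.74. These 4 values are all below background. Sult4a1 stood at 14.04 on the vehicle titled GFP- array of replicate 1, against 13.83 to 13.86.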

How the results depend on the processing

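In odor pools the 29 called members became 70 under centring on the median of tested features, 19 with the receptor median, 15 with a filter at the GC-graded background (31 members tested), 7 with a filter at the 95th percentile of negative controls (14 tested) and 3 at the 99th (4 tested). Leaving out 1 pool gave 15 to 30. In vehicle pools the 20 became 93 with centring on tested features and 10, 5 and 2 with the same 3 filters. Fewer members could pass the filters by construction, and the cause of the other changes was not tested. The 7 Aldh calls in odor pools became 11 and 4 with these centrings and 3 and 2 with the negative control filters, and leaving out 1 pool gave 3 to 7. The 3 Aldh calls in vehicle pools became 12 and 5 with the centrings and 5 with the pool as replicate block. Cyp2s1 and Cyp4a30b in odor pools turned to -0.02 (adjusted p = 0.96 each) with the receptor median.

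With the pool as replicate block the fraction comparisons gave 35 and 28 members, and 49 of 49 single calls kept their side and direction. A variance trend also kept 49 of 49, renewed quantile normalization 42 and centring on tested features 43. In all 8 fits that left out 1 pool, 10 of the 29 odor calls and 13 of the 20 vehicle calls were kept, among them Aldh2, Aldh9a1, Gstp1, Gstp2, Gsto1, Gsta3 and Cyp4f18 in both treatments. No setting gave a called member in the odor comparisons, where the block was the replicate number, or in the interaction, where it was the pool. Signal over background limits 118 of 154 members, for which no level is established, and 4 arrays a group limit the odor comparisons.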
